A study of Mus musculus with 30 samples.

Results

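The places described here are the Menin peaks of vehicle-treated mouse leukaemia cells that also carried a UTX peak. They were chosen from 2 deposited peak lists, Menin in DMSO with 11195 peaks and UTX in DMSO with 217 peaks, as every Menin peak that shared at least 1 bp with a UTX peak. This gave 186 shared places, which is 1.66% of the Menin peaks. From the other side, 188 of the 217 UTX peaks (86.6%, exact 95% interval 81.4 to 90.9%) lay on a Menin peak. The peaks were mapped by chromatin immunoprecipitation and sequencing in WT-MA9, an acute myeloid leukaemia line that stably expressed pMSCV-MLL-AF9-GFP, a retroviral construct for the MLL-AF9 fusion. The cells grew with IL6, IL3 and SCF, received DMSO as vehicle, were harvested at day 4 and were fixed with 1% paraformaldehyde for 5 minutes. For each antibody 1 DMSO library of this line was used. The labels also name a UTX library in DMSO from WT-MA9 cells labelled Nfya-WT and Menin and UTX libraries from 3T3 cells, which were not analysed here. So no value below has a replicate check, no p-value was computed, and 95% intervals cover counting error only. For both antibodies, lists of cells given MI-503, a small molecule that blocks the contact of Menin with MLL1, were used as an additional readout. Peak lists hold no expression values, so the identity of the cells and the specificity of the antibodies could not be checked in them.

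Menin, the product of Men1, is a scaffold that tethers the MLL1 and MLL2 histone methyltransferases, and fusions such as MLL-AF9, to chromatin. UTX, the product of Kdm6a, removes methyl groups from lysine 27 of histone H3 and works inside complexes built on MLL3 or MLL4, sister enzymes known mainly from enhancers. Menin is best known in this leukaemia for its place at the HOXA genes and Meis1. NF-Y is a trimer of NF-YA, NF-YB and NF-YC that binds the CCAAT box, an element often found a short way before the start sites of cell cycle and secretory pathway genes. The series also mapped UTX in cells labelled Nfya-KO, and those libraries were not analysed here.

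Promoters from both kinds of Menin peak are shown first because a motif in them differed in frequency between shared places and other Menin peaks. Each line gives the 250 bases before an annotated start site, 5′ to 3′ on the strand of the gene, from RefSeq on GRCm38.p6, the assembly of mm10. Capitals mark every match on either strand to the strings searched, with a match on the other strand standing as its reverse complement, ATTGG for a CCAAT box. The other strings present are the SP/KLF string GGGCGG, the E-box CACGTG and the CREB string TGACGTCA. The last of these overlaps its shorter form TGACG. In the Crebrf promoter a CACGTG and a TGACG share bases and form a single run of capitals. Leaving out predicted genes, the first 6 are the shared places at gene boundaries with the highest UTX −log10 q on ordinary ground (defined below) whose promoter entry the UTX peak overlapped.
Isoc2a, chr7:4876803-4877052, plus strand: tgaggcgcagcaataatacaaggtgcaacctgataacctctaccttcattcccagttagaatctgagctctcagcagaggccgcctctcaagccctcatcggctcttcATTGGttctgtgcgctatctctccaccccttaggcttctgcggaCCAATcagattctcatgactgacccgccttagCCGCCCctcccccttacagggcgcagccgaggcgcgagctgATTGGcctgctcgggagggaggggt
Epb41, chr4:132075314-132075563, minus strand: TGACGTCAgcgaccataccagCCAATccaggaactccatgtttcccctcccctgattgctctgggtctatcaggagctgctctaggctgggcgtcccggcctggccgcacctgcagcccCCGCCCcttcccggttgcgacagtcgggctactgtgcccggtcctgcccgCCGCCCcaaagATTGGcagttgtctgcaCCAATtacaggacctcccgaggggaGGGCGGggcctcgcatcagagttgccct
Ensa, chr3:95624730-95624979, plus strand: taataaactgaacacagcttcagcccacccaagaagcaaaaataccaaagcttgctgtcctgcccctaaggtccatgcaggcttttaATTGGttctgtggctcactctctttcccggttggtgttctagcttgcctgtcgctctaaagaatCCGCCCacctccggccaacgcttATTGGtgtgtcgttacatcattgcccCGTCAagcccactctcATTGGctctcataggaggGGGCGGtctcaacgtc
Ttf2, chr3:100969664-100969913, minus strand: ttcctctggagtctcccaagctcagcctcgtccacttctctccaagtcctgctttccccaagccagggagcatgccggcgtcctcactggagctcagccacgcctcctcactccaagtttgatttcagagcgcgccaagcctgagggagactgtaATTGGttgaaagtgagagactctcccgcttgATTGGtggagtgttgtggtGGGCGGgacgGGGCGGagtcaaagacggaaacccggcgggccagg
Syvn1, chr19:6046326-6046575, plus strand: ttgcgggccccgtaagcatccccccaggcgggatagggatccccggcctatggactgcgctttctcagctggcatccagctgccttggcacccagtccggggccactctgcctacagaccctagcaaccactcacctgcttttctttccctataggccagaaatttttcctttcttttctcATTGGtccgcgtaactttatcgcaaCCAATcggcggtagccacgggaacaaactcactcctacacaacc
Crebrf, chr17:26715400-26715649, plus strand: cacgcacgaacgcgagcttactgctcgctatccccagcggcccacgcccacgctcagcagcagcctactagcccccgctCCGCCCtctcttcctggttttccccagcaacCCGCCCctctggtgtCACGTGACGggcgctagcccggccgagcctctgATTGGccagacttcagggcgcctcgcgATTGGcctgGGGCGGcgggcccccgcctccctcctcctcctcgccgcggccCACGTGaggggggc
The last 2 come from the highest Menin peaks of matched rank without UTX that had such an entry. Their Menin ranks are 61 and 62, against 428 to 3915 for the first 6, which were picked by UTX. The 2 groups are thus examples and not a matched comparison.
Ctnnbip1, chr4:149517991-149518240, plus strand: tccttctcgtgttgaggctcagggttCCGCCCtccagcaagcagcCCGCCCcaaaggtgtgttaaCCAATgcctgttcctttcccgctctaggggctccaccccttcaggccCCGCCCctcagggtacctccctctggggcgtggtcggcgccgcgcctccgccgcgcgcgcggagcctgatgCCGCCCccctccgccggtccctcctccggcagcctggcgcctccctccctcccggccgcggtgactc
Amz2, chr11:109425696-109425945, plus strand: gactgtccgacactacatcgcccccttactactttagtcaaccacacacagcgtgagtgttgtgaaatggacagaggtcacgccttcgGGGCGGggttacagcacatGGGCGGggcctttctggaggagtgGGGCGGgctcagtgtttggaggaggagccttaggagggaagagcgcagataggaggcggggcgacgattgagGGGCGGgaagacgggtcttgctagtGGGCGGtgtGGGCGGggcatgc
The stretches of Isoc2a, Epb41 and Ensa each held 3 CCAAT matches, and those of Ttf2, Syvn1 and Crebrf held 2. The Ctnnbip1 stretch held 1 CCAAT match and the Amz2 stretch held 0. GGGCGG had 6 matches in Amz2, 4 in Ctnnbip1, 3 in Epb41 and Crebrf, 2 in Ensa and Ttf2, 1 in Isoc2a and 0 in Syvn1.

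CCAAT was far more common under shared places than under other Menin peaks of the same rank. For this comparison each shared place was paired with the nearest unused Menin peak without UTX above it and below it in −log10 q, which gave 372 comparison peaks. RefSeq promoter entries of 300 bases, from 250 before to 50 after a start site, lay under 128 of the 186 shared places and 211 of the 372 comparison peaks. At least 1 CCAAT on either strand was found in 113 of the 128 promoters under shared places (88.3%, interval 81.4 to 93.3%), in 105 of the 211 under comparison peaks (49.8%, 42.8 to 56.7%) and in 45.3% of the 5128 under any Menin peak. Promoters with several boxes differed as well. At least 2 CCAAT were held by 75% of the promoters at shared places, 21.8% at comparison peaks and 20.7% at all Menin peaks, and at least 3 by 43.0%, 9.95% and 8.46%. In none of these 3 counts did the intervals of shared places and comparison peaks overlap, and on ordinary ground (defined below) the shares with at least 1 were 88.2% and 50.8%.

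**Figure D1:**
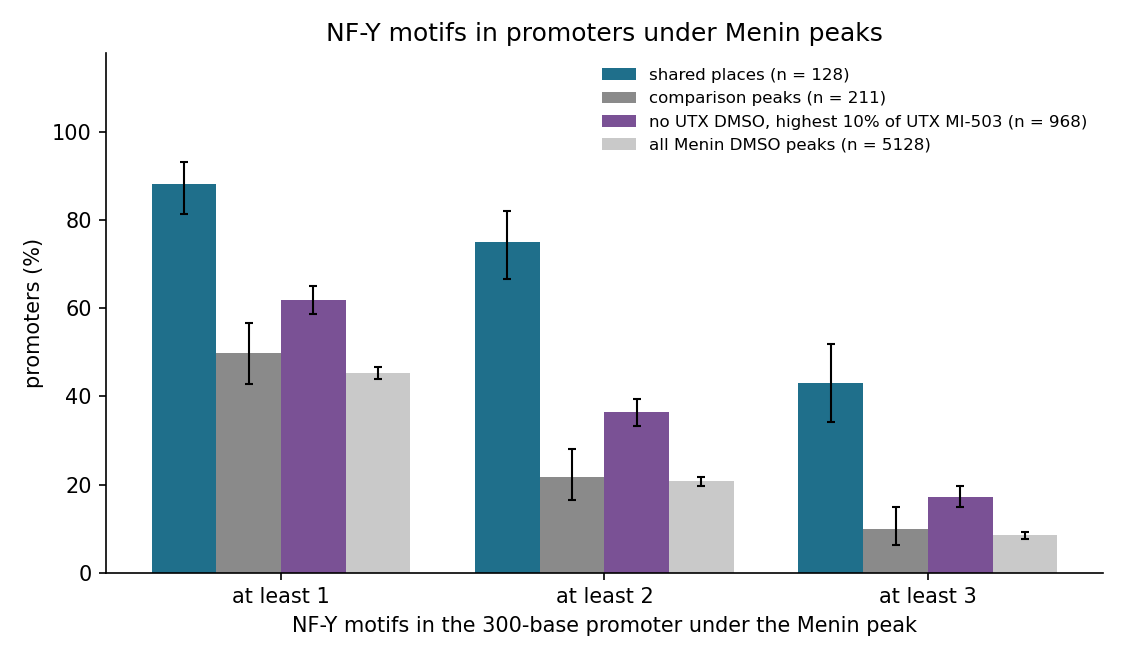
Percent of 300-base promoters under Menin peaks (y axis) with at least 1, 2 or 3 matches to the NF-Y motif (x axis) for shared places, comparison peaks of matched rank, Menin peaks without UTX DMSO that carried a UTX MI-503 peak of the highest 10%, and all Menin DMSO peaks. Bars are shares, lines are exact 95% intervals for counting error, and n is the number of promoters. Shared places stand highest in each group of bars, at 88.3%, 75% and 43.0%. The NF-Y motif of the figure is the bare string CCAAT on either strand, without its flanking bases.

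The same comparison was made by gene, with any promoter entry of the gene. Of the 168 genes with both proteins at a boundary, 149 had an entry, and 124 of these (83.2%, interval 76.2 to 88.8%) held CCAAT. The share was 52.8% (46.4 to 59.2%) of 246 genes at comparison peaks, 45.9% of 5486 genes with Menin alone and 42.3% of all 17491 genes with an entry. Base composition was close in the sets. Median GC content was 61.7% in genes with both and 60.7% at comparison peaks, and each set had a median of 22 CG dinucleotides.

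Of the other strings searched, the E-box CACGTG, bound by USF, MYC and TFE3 among others, was in 20.1% (interval 14.0 to 27.5%) of promoters of genes with both, against 11.8% (8.04 to 16.5%) at comparison peaks and 8.91% of all genes. Those 2 intervals overlap. GCATGCGC, the NRF1 string, went the other way, at 3.36% (1.10 to 7.66%) against 9.76% (6.35 to 14.2%) and 3.93% of all genes, again with overlapping intervals. Neighbouring values were found for GGGCGG (80.5 against 77.6%, and 49.2% of all genes), for TGACG (42.3 against 48%, and 26.2%) and for the ETS string CCGGAAG (22.1 against 24.4%, and 12.9%). TGACGTCA was in 4.03 against 5.28% (2.54% of all genes), the YY1 string AAGATGGC in 7.38 against 5.69% (3.57%), TATAAA in 8.05 against 9.76% (14.8%) and CTCGCGAG in 0.671 against 2.03% (1.41%). CCAAT was the one string of the 10 for which the intervals of the 2 sets did not overlap. The strings were chosen with earlier results of these data known, so this is a description and not an open search.

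Peak summits lay close to the boxes. On ordinary ground, 112 shared places had a promoter entry with a CCAAT, and the Menin summit was a median of 16 bp (interval 12 to 17) from the centre of the nearest one. The UTX summit was a median of 14.5 bp (12 to 18) away, and 103 of the 112 lay within 50 bp. At the comparison peaks of these places the Menin summit was 39.5 bp (25 to 45) from the nearest box, over 96 promoters. More boxes bring the nearest one closer, so promoters were also taken by number. With exactly 1 CCAAT the distance was 24.5 bp (14 to 42) at 16 shared places and 56 bp (37 to 80) at 50 comparison peaks. With exactly 2 it was 13 bp (8 to 22) over 41 and 19 bp (8 to 43) over 25, and with 3 or more it was 15 bp (11 to 17) over 55 and 27 bp (17 to 41) over 21, intervals that touch or overlap in each of the 3 classes.

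At Syvn1 the UTX summit lay 0 bp from the centre of a CCAAT and the Menin summit 9 bp, in the promoter printed above. At Map2k1, the highest shared place, both summits lay 2 bp from a CCAAT. The median position of the boxes relative to the start was −90.5 bases at shared places and −82 at their comparison peaks. Where a promoter held several, the median step from one box to the next was 44 bases at shared places and 49 at comparison peaks.

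**Figure D2:**
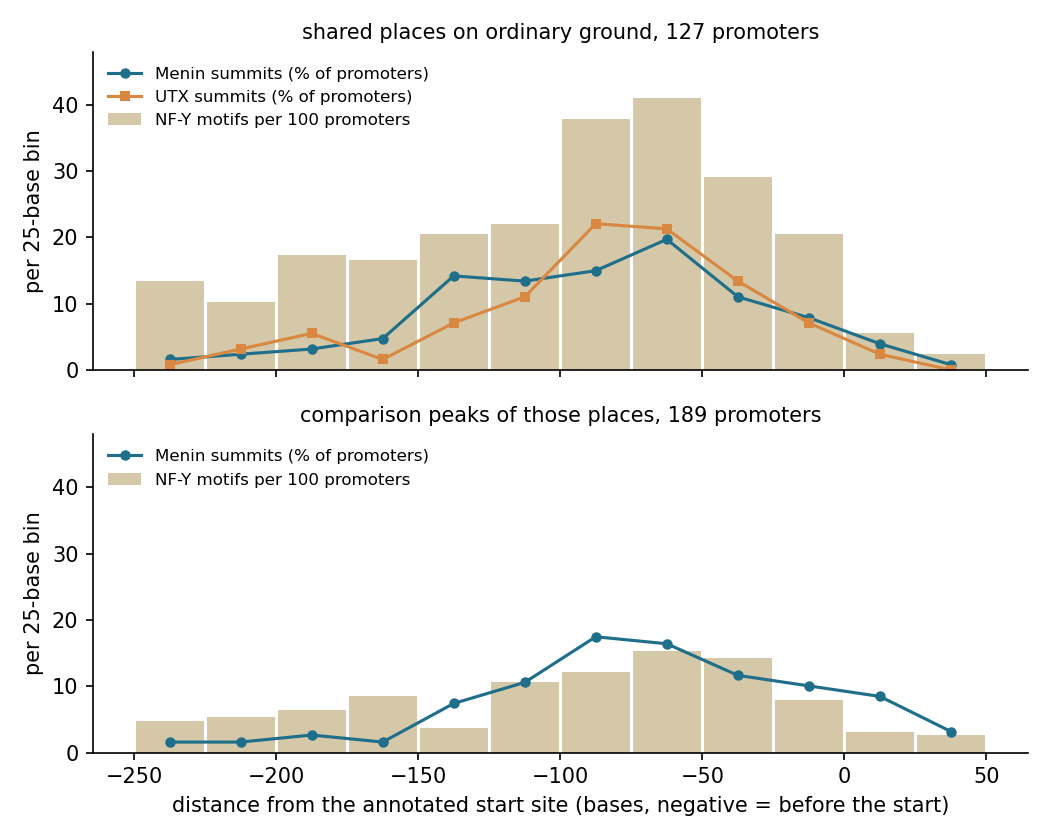
Distance from the annotated start site in bases (x axis, negative before the start) of matches to the NF-Y motif (bars, per 100 promoters), Menin summits and UTX summits (lines, percent of promoters) in 25-base bins, for 127 promoters under shared places on ordinary ground and 189 under their comparison peaks. Motif bars are higher at shared places over most of the window, and both summit lines peak within the 100 bases before the start, where the bars are also highest. The NF-Y motif of the figure is the bare string CCAAT on either strand, without its flanking bases.

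The promoters without a CCAAT were not spread evenly among the shared places. All 15 were on ordinary ground, and 12 of them were among the 34 promoters in bin 1 when the Menin list was divided into 10 equal bins by −log10 q, with bin 1 the highest. In that bin 64.7% (interval 46.5 to 80.3%) of the promoters held the box. In bins 2 and 3 it was held by 96.7% of 30 and 96.3% of 27 promoters, and in bins 4 to 10 by 97.3% of 37. Among Menin peaks without UTX the bins lay closer together, with 40.7% in bin 1, 48.2% in bin 2, 48.4% in bin 3 and 34.9% in bin 10. The shared places without CCAAT had a median Menin fold of 19.1 (interval 11.6 to 24.4, over 15), against 8.98 with exactly 1 box (16 places), 9.09 with 2 (41 places) and 7.72 (6.71 to 8.75) with 3 or more (55 places). Median UTX fold in the same classes was 7.49, 7.21, 7.86 and 7.93, with intervals that overlap. Among the places without the box were Ahcyl1, Gcc1, Chaf1b, Sde2, Smndc1, Mcoln1 and the ribosomal protein gene Fau, 7 of the 10 shared boundary places with the highest Menin peaks.

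Shared places lay mostly in the upper part of the Menin list. The first by −log10 q was rank 60, at Map2k1. In the same 10 bins, 39, 37 and 41 places fell in bins 1, 2 and 3, 21 in bin 4, 16 in bin 5, and between 5 and 8 in each of the last 5 bins. As shares of the Menin peaks these ran from 3.48% (interval 2.49 to 4.73%) in bin 1 to 0.447% (0.145 to 1.04%) in bin 10. The first 3 bins cannot be ordered, since their intervals overlap. At the share of bin 1, the absence of UTX from the 59 highest peaks is near the background. The median rank was 2696.5 of 11195.

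**Figure D3:**
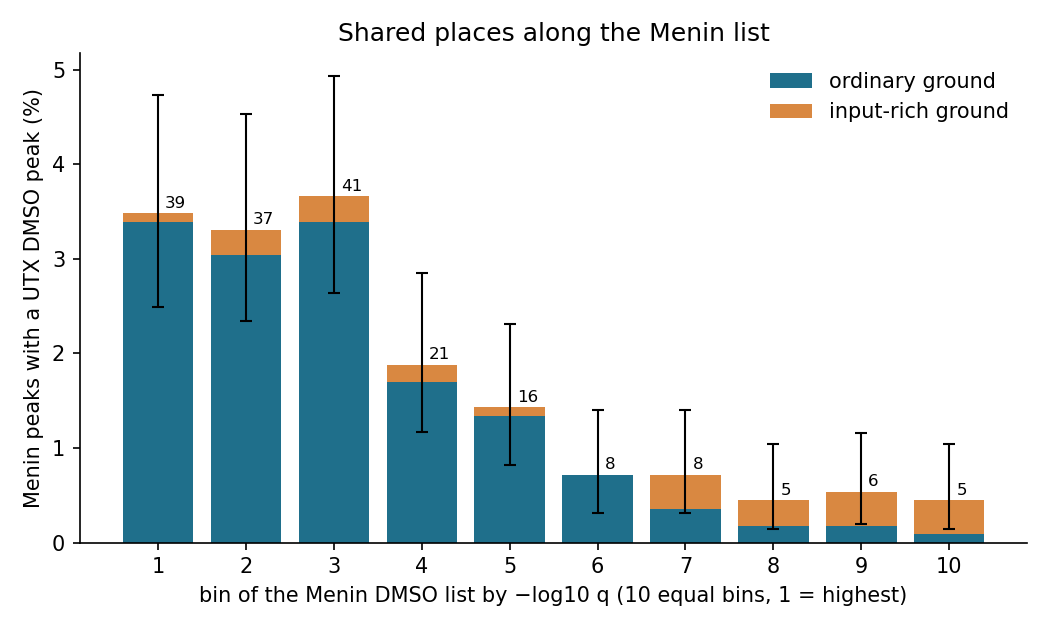
Percent of Menin DMSO peaks that carried a UTX DMSO peak (y axis) in 10 equal bins of the Menin list by −log10 q (x axis, 1 is the highest), divided by the local background of the UTX peak. Lines are exact 95% intervals of the total, numbers are shared places per bin; the first 3 bins hold 39, 37 and 41 places and the last 5 between 5 and 8 each.

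The values behind single places were taken from the deposited fold enrichment, pileup at the summit over local background, and from the number of fragments at the summit, which was recovered from fold and p-value. By the mean of both ranks the leading shared places were Hjurp, Epb41, Crebrf, Mcoln1, Map2k1, Isoc2a, Taf6l, Cdc25a, Stard9 and Prmt3. Map2k1, the kinase gene of the RAS to ERK cascade, had a Menin fold of 26.2 and a UTX fold of 8.53, with the 2 summits 0 bp apart. Mcoln1, which encodes a lysosomal calcium channel, had 25.2 for Menin and 9.81 for UTX. Cdc25a, a phosphatase gene for entry into the cell cycle, had 14.5 and 10.1. Isoc2a had 12.9 and 12.2, and Epb41, the gene of a membrane skeleton protein, had 13.3 and 11.3. These 5 peaks rested on between 19 and 24 UTX fragments each, so small differences in UTX fold between them are within counting error.

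High Menin peaks among the shared places came with high and with low UTX peaks. Hjurp was among the 10 highest boundary places by both, with a Menin fold of 8.92 and a UTX fold of 11.2, but it stood on input-rich ground (defined below). Ahcyl1 and Gcc1, the latter a Golgi coiled-coil gene, each had a Menin fold of 26.7 but UTX folds of 6.91 and 7.37, and Chaf1b, a subunit of the histone chaperone CAF-1, had 24.4 and 6.89. At the low end, Top2a, the mitotic topoisomerase gene, had a Menin fold of 4.32 and a UTX fold of 7.04. Slc46a3, a lysosomal transporter gene, had 4.67 for Menin and 9.98 for UTX, and Traip, a ubiquitin ligase gene of the DNA replication machinery, had 4.72 and 8.35. The UTX peaks at Ahcyl1, Gcc1 and Chaf1b rested on 15, 14 and 13 fragments. Those at Top2a and Traip rested on 16 and that at Slc46a3 on 21, so small differences in UTX fold between these 6 are within counting error. On ordinary ground UTX fold spanned a narrow range, with a median of 7.86 and quartiles of 7.21 and 8.81, while Menin fold had a median of 8.44 and quartiles of 6.51 and 12.2. The UTX summits there held a median of 16 fragments and at least 11. How far these low counts and the cutoff of the peak list set the narrow range and the correlation below was not tested. The rank correlation of the 2 folds was −0.13 across the 161 places on ordinary ground and 0.13 across all 186, given as a description because the places share both libraries.

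**Figure D4:**
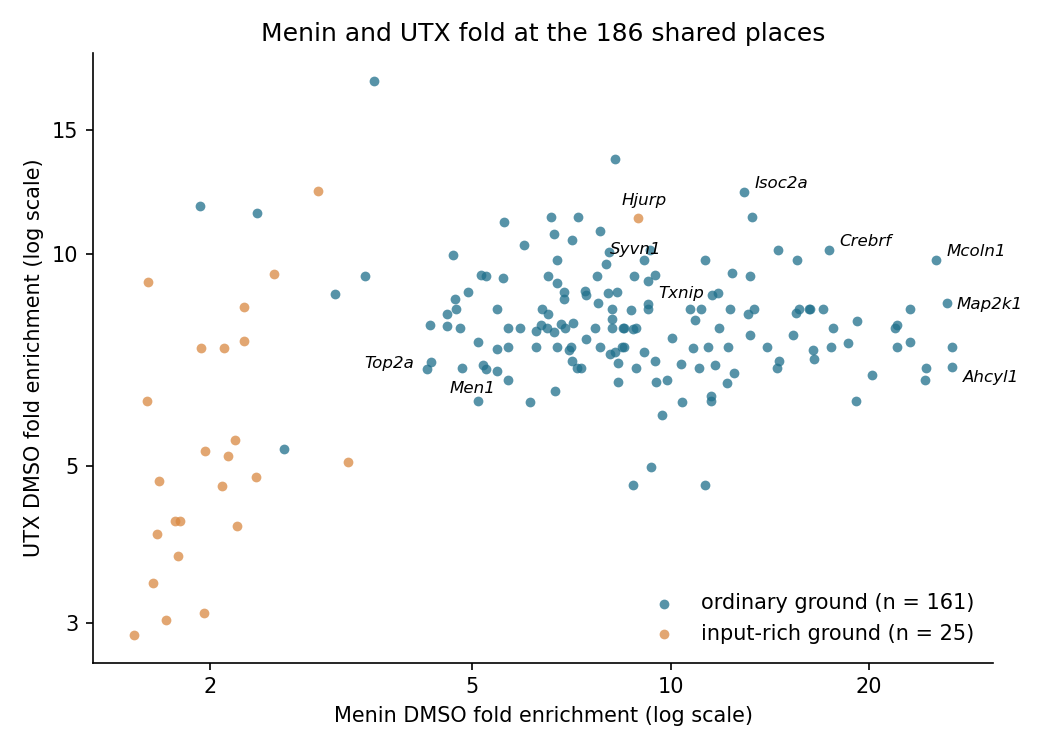
Menin DMSO fold enrichment (x axis, log scale) against UTX DMSO fold enrichment (y axis, log scale) at the 186 shared places, 1 point each, coloured by the local background of the UTX peak, with 10 genes named. Points on ordinary ground form a flat band with a median UTX fold of 7.86, and points on input-rich ground lie to the left, with a median Menin fold of 1.97.

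A small group of shared places stood on ground where the background was high. Input-rich ground was defined as a recovered UTX background of at least 3 times the lowest in the list, and 25 of the 186 places (13.4%, interval 8.89 to 19.2%) met it, against 18% of all UTX peaks. All 25 also had a Menin background of at least 3 times the lowest. Their Menin folds were low, with a median of 1.97 and a range from 1.53 to 8.92, although their summits held a median of 148 Menin fragments against 49 on ordinary ground. The group included the 6 UTX peaks with the highest −log10 q of the list. The first of these, of 197 fragments and 7.53-fold, overlapped a Menin peak of 2.25-fold on chromosome 17 (39842970 to 39846416), 106094 bp from the nearest protein-coding gene, Esp38.

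Such places came in runs. On chromosome 17, 4 lay between 39842970 and 39848863, and on chromosome 11, 8 lay between 3127384 and 3142630 at and beside Sfi1, a centrosome gene, with 4 more UTX peaks there that missed Menin. The others of the highest 10 UTX peaks away from boundaries lay inside Cmss1 and Zc3h7a, nearest to Pex2, Samd9l and Vmn1r77, or nearest to a predicted gene. At the Vmn1r77 place and the one at the predicted gene the UTX background was 2.51 and 1.00 times the lowest, so those were counted as ordinary ground, with Menin backgrounds of 17.1 and 11.2 times the lowest. A Menin background of at least 3 times the lowest was found at 13.0% of places on ordinary ground, 6.52% of their comparison peaks and 4.98% of all Menin peaks. How far the input sets these peaks was not tested. Shares on ordinary ground alone are given beside the main results.

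Shared places were mostly at gene starts. A boundary was taken as the region up to 1 kb on either side of where a protein-coding gene is annotated to begin or finish. It held the Menin summit of 139 of 186 shared places (74.7%, interval 67.9 to 80.8%), 249 of 372 comparison peaks (66.9%, 61.9 to 71.7%) and 56.2% of all Menin peaks. On ordinary ground the share was 85.1% (78.6 to 90.2%) against 68.9% (63.6 to 74.0%) at the comparison peaks of those places. On input-rich ground it was 2 of 25, at Hjurp and Sfi1. Under a stricter overlap, 50% or more of each peak, the places fell to 73 and the order turned, with 58.9% at shared places and 63.7% at comparison peaks. That setting also left narrower Menin peaks and a larger share of places on input-rich ground. What turned the order was not tested. Among boundary peaks at genes of 5 kb or more with a known strand, 111 of 113 shared places and 185 of 192 comparison peaks were at the start and not the end. Boundaries of 2 or more genes made up 20.9% (14.4 to 28.6%) of the shared boundary places, 14.9% (10.7 to 19.9%) of the comparison ones and 19.2% of all, intervals that overlap. Examples are Fau with Mrpl49, Slc9a3r1 with Rab37, and Fam185a with Ccdc146.

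Where strand was known, shared places leaned to the upstream side of the start. Of the Menin summits within 1 kb of a start site, 10 of 134 (7.46%, interval 3.64 to 13.3%) lay downstream of it at shared places, against 48 of 225 (21.3%, 16.2 to 27.3%) at comparison peaks and 28.9% of 5688 among all Menin peaks. The median position relative to the start was −82 bases (interval −98 to −71), against −57 (−71 to −49) at comparison peaks, intervals that touch at −71.

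The 2 proteins peaked at nearly the same spot. Menin and UTX summits were a median of 28.5 bp apart (interval 23 to 33), and 133 of 186 (71.5%) were within 50 bp. At Chaf1b and Smndc1 they were 2 bp apart, and at Crebrf 5 bp. The Menin peak was the wider of the 2 at 181 of 186 places, with a median width of 348.5 bp against 142.5 bp for UTX. Comparison peaks had a median Menin width of 354.5 bp (interval 328 to 372), within the interval of the shared places (323 to 379).

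The places that carried UTX in vehicle were also among the highest UTX peaks in cells given MI-503. A UTX MI-503 peak overlapped 183 of 186 shared places (98.4%, interval 95.4 to 99.7%), 298 of 372 comparison peaks (80.1%, 75.7 to 84.0%) and 66.4% of all Menin peaks. The difference was larger for the highest 10% of the UTX MI-503 list, 1423 peaks, which covered 149 shared places (80.1%, 73.6 to 85.6%) but 80 comparison peaks (21.5%, 17.4 to 26.0%) and 13.1% of all Menin peaks. At boundaries alone the shares were 84.9% and 27.7%, and on ordinary ground 84.5% and 24.2%. The overlapping UTX MI-503 peak had a median fold of 23.0 (20.8 to 25.1) at shared places and 12.7 (12 to 13.7) at comparison peaks. With overlap of at least 50% of both peaks the shares with any UTX MI-503 peak were 75.8% and 71.5%. The UTX lists in DMSO and in MI-503 share 1 input library. None of the 186 places had a Menin MI-503 peak, in a list of 8. Across shared places on ordinary ground, the rank correlation of the UTX MI-503 fold was 0.43 with Menin fold and 0.11 with UTX DMSO fold (n = 161). Over all 183 places with a UTX MI-503 peak these values were 0.58 and 0.29. UTX DMSO summits on ordinary ground held a median of 16 fragments, and how far counting error lowers their correlation was not tested.

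A high UTX peak in MI-503 went with more CCAAT also where no UTX was called in vehicle. Of 968 promoters under Menin peaks without UTX DMSO but with a UTX MI-503 peak of the highest 10%, 62.0% (interval 58.8 to 65.1%) held CCAAT and 36.4% held at least 2. Both values lie between those of comparison peaks (49.8% and 21.8%) and shared places (88.3% and 75%).

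By gene, 6832 of 21883 protein-coding genes (31.2%) had a Menin peak at a boundary, 170 (0.777%) had UTX and 168 (0.768%) had both, so 2.46% of genes with Menin also had UTX. A gene has both where each protein had a peak at a boundary, which need not be the same place. At Lars2 the UTX peak, of 3.68-fold on a background 23.9 times the lowest, overlapped no Menin peak. UTX alone was found at 2 genes, Runx3, which encodes a transcription factor of blood cells, and Rab26, which encodes a small GTPase of vesicles. The Rab26 peak is the shared place at the neighbouring gene Traf7, where the Menin summit lay beyond 1 kb from Rab26. The gene lists read against this background were drawn up with earlier results of these data known, so their counts are descriptions.

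Genes of the unfolded protein response and of folding in the endoplasmic reticulum (ER) included 7 with both proteins. Of the 30 on the list, 28 had Menin and 7 of these had UTX, 25% against 2.46% of all genes with Menin. Hspa5, the gene of the ER chaperone BiP, had a Menin fold of 8.24 and a UTX fold of 7.25. Hsp90b1, the ER member of the HSP90 family, had 8.44 and 7.37, and Manf, a secreted ER stress factor, had 6.72 and 9.81. Eif2ak3, which encodes the stress sensor kinase PERK, had 4.79 and 7.86. Herpud1 and Syvn1, which encodes the ubiquitin ligase HRD1, serve the disposal of misfolded ER proteins and had 11.4 and 7.37, and 7.81 and 10.8. Crebrf, a regulator of CREB3 factors, had the highest Menin fold of the 7, at 17.4, with a UTX fold of 10.1. Of the 7, 6 had a promoter entry under the Menin peak. Each of these held CCAAT, which is near the 88.3% of promoters under all shared places. There were 6 boxes at Hsp90b1 and Eif2ak3, 4 at Hspa5 and 2 at Herpud1, Syvn1 and Crebrf. Of the other members, 21 had Menin alone, among them Xbp1 (Menin fold 5.09), Atf4 (10.3), Atf6 (4.24), Ddit3 (7.98), Dnajb9 (17.5) and Dnajb11 (6.65). The Menin fold of Dnajb9 was thus no lower than that of any of the 7 genes with UTX.

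The mitotic list had the same share, with 4 of 25 genes, 25% of the 16 with Menin. It was composed of genes known for CCAAT promoters, so the box in them is not a finding. Top2a had Menin and UTX folds of 4.32 and 7.04, Cenpf, a kinetochore protein gene, 6.51 and 9.32, Ube2c, a ubiquitin carrier of the anaphase complex, 5.25 and 9.32, and Hjurp, the chaperone of the centromeric histone CENP-A, 8.92 and 11.2. The Hjurp peak stood on input-rich ground, with UTX and Menin backgrounds of 3.45 and 9.07 times the lowest, so 3 of the 4 remain without that ground. Ccna2 (Menin fold 8.45), Ccnb2 (4.41), Cdc25c (6.54), Aurka (6.22), Bub1 (7.85) and Birc5 (6.91) were among the 12 with Menin alone.

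Among the genes for glucose sensing and brakes on growth, 2 of 23 had both, which is 11.1% of the 18 with Menin against 2.46% of all genes with Menin. Txnip, an arrestin-domain inhibitor of glucose uptake, had a Menin fold of 9.24 and a UTX fold of 8.49, with 2 CCAAT in the promoter and the UTX summit 8 bp from the nearer. Mxd4, a MYC antagonist, had 5.67 and 7.86. Further lists had 1 gene each with both. These were Stip1 of the chaperones (5.24 and 6.87), Mcoln1 of the lysosome, Trp53inp1 of the cell cycle inhibitors (6.38 and 8.35), Fau of the ribosomal proteins (19.1 and 6.18) and the clock gene Per2 (8.49 and 7.37). The clock gene Per1 was counted as Menin alone (7.64) by the boundary rule. It also held a shared place inside the annotated gene, at position −108 relative to a start site of the promoter table, with a Menin fold of 6.58 and a UTX fold of 11.3, and that promoter entry held 3 CCAAT. With 10 to 26 Menin genes on these lists, 1 gene is close to what 2.46% would give.

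Men1 itself, the gene of Menin, was the one gene of the 23 on the list of MLL complex subunits and partners with both. The shared place lay at its start with a Menin fold of 4.82 and a UTX fold of 6.89, and a second Menin peak of 5.52-fold without UTX lay at the other end of the gene. Its promoter entry held 1 CCAAT, 19 bp from the Menin summit and 37 bp from the UTX summit. The list also had 14 genes with Menin alone, including Kmt2a (6.72), Kmt2b (5.94), Kmt2c (12.2), Kmt2d (10.9), Setd1a (4.52) and Paxip1 (5.91).

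No gene with both was found among the classical targets of MLL fusions. Menin lay at a boundary of 31.2% of all genes, and summits more than 1 kb from a boundary were not counted. Of the HOXA genes, Meis1 and Pbx3, 3 of 13 had Menin by this rule, namely Hoxa3 (3.05), Hoxa11 (8.74) and Pbx3 (11), and none had UTX. Of 24 other fusion targets 9 had Menin, among them Runx1 (8.83), Dot1l (13.5) and Cdkn2c (5.79), again with 0 UTX. The count was also 0 among 25 vesicle traffic genes with Menin, 22 of splicing, 21 of ubiquitin ligases and deubiquitinases, 18 immediate early genes, 16 of cholesterol synthesis, 15 housekeeping genes, 9 myeloid genes and both NF-Y subunit genes with Menin, Nfya (17.4) and Nfyb (12). At a background of 2.46% a list of this length would hold 0 or 1 gene with both, so these zeros are near the background.

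**Figure D5:**
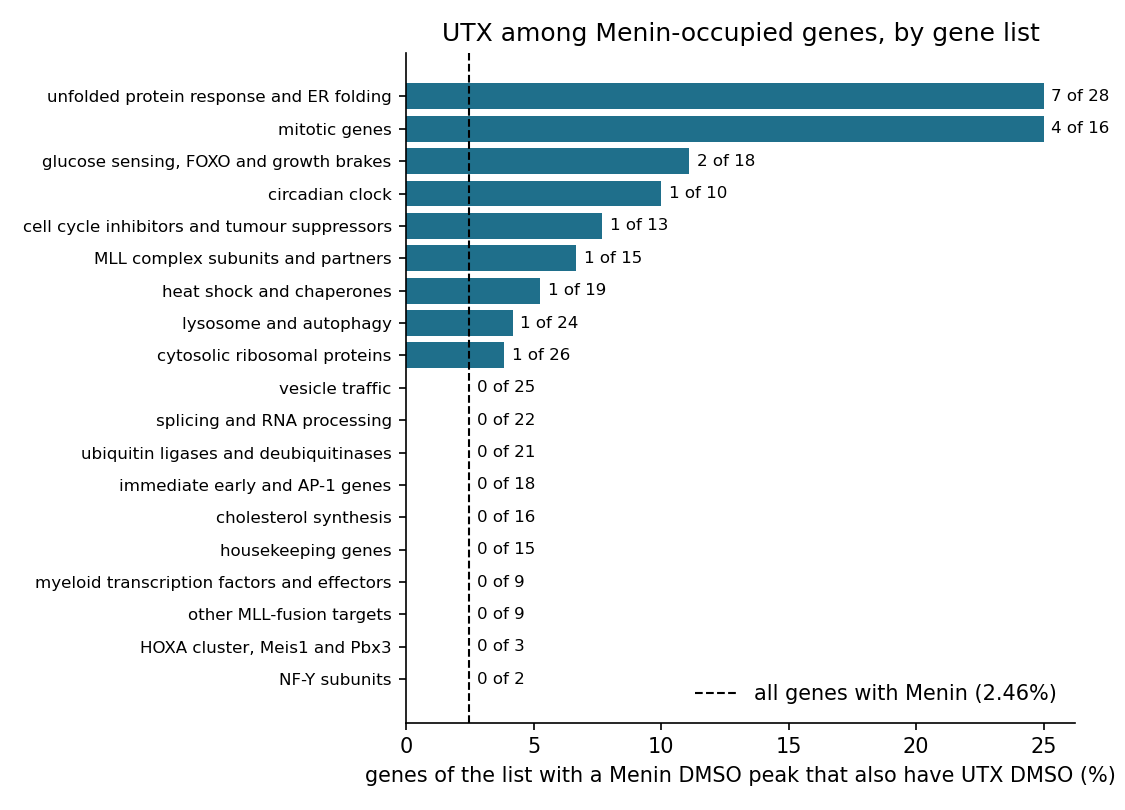
Percent of genes with a Menin DMSO peak that also had a UTX DMSO peak at a boundary (x axis) in each of 19 gene lists (y axis), with the counts beside the bars and a dashed line at the 2.46% of all genes with Menin. The lists of the unfolded protein response and of mitotic genes, both at 25%, rest on 7 and 4 genes, and the other bars rest on 0 to 2 genes.

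UTX peaks without Menin were a minority of the UTX list and lay mostly away from boundaries. Of the 29 UTX peaks that missed every Menin peak, 14 stood on input-rich ground (48.3%, interval 29.4 to 67.5%), against 13.4% of shared places. Boundaries held 3 of the 29 UTX summits (10.3%, 2.19 to 27.4%), at Lars2, Sfi1 and Runx3, against 74.7% of Menin summits at shared places. The first of the 29 in −log10 q lay inside Aida with a fold of 3.01 on a background 55.3 times the lowest. The Runx3 peak had the lowest −log10 q of the 29, with a fold of 6.40 from 12 fragments on the lowest background of the list. A UTX MI-503 peak overlapped 19 of the 29.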

How the data were processed

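Peak lists of 4 WT-MA9 libraries were used (Menin and UTX, each in DMSO and MI-503, 1 library each), and 26 further libraries of the labels were not analysed here. Peaks were called with MACS2 on mouse build mm10, per the submitters' processing notes. Not given in the sources used here are the MACS2 version, aligner, read filters, q threshold and MI-503 concentration. By the names of the deposited peaks, the Menin lists share 1 vehicle input and the UTX lists another. The deposited fold values are a ratio of pileup plus 1 to local background plus 1, the deposited −log10 values are p and q at the summit, and the deposited score is 10 times −log10 q, checked in 25651 peaks.

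Pileups and backgrounds were recovered by solving fold and p-value for each peak. All pileups tried were whole multiples, within 0.01, of 1 step (1.00 for Menin, 0.874 for UTX), against at most 50.2% and 54.4% at other steps, and a pileup divided by its step gave the fragments at the summit. Summits of the lists rested on at least 11 fragments. Total depth is unknown, so no limit on missed peaks is given. Genes and start sites came from RefSeq (GRCm38.p6, 21883 protein-coding genes). The gene table has no strand, so boundaries were used, and start sites only for the 17491 genes with a promoter entry. All 430 listed gene names matched. Intervals are Clopper-Pearson for shares and order-statistic binomial for medians, with scipy 1.17.1, numpy 2.4.6 and pandas 2.3.3 on Python 3.11.15. The recovery and overlap code was tested on simulated data.

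Genes named were the 10 boundary places highest by the mean of both ranks, by UTX and by Menin, the 5 lowest by Menin, the highest 10 comparison peaks, places away from boundaries and UTX peaks without Menin, every list member with both, and up to 6 with Menin alone. Not every gene the rule takes is printed, and predicted genes were only counted. The members, lists and strings were chosen with earlier results of these data known. The count of CCAAT in the promoter entry under each peak, and the distances to it, were added after the data had been seen. Alternatives changed the overlap, the q thresholds, the ground, the matching, the windows and the promoter length.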

Additional observations from a re-analysis of the deposited data

How the results depend on the processing

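Of 323 values recomputed under 18 alternatives, 290 stayed within their interval and 33 moved. CCAAT stayed more frequent in genes with both than at comparison peaks in every alternative. The 150 bases before the start alone gave 78.5% and 40.2%, and the promoter entry under the Menin peak gave 88.3% and 49.8%. With at least 50% of both peaks shared, 73 places and 33.6% of UTX peaks were left, at a median rank of 3765 and a width of 253 bp (comparison peaks 296 bp), with 58.9% at boundaries, 26.0% and 39.7% on input-rich ground by UTX and Menin background, and 73.3% of comparison peaks under UTX MI-503. That was the one setting in which the boundary share was lower at shared places than at comparison peaks. Without input-rich UTX peaks, 91.6% of UTX peaks lay on Menin, and of the places 85.1% were at boundaries, 100% under UTX MI-503 and 13.0% on a high Menin background. With boundary peaks alone (100% at boundaries in both sets), 100% of shared and 94.2% of comparison peaks lay under UTX MI-503, 1.44% and 10.1% of shared places were input-rich by UTX and Menin background, and comparison peaks were 413.5 bp wide. Matching by fold put 19.1% of comparison peaks on a high Menin background. A 3 kb window gave 82.3% and 73.9% at boundaries and 32.7% and 23.3% at 2 genes, and a 500 bp window gave 61.0% of comparison peaks at boundaries. UTX MI-503 overlap of 50% of both peaks gave 75.8% and 71.5%, and the highest 10% of that list 80.1% and 21.5%. A cutoff of 2 times the lowest for Menin background took in 56.5% of shared places and 36.8% of comparison peaks. No paired analysis was possible because each group has 1 library. Summits of 11 to 39 UTX fragments on ordinary ground limit how finely UTX folds can be told apart.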

Other observations

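Genes with both proteins also included members of families that were chosen after their values were seen, so the counts below are descriptions. Of 47 Slc25 genes, most of which encode carriers of the inner mitochondrial membrane, 28 had Menin (59.6%, against 31.2% of all genes). Of these 28 Slc25 genes with Menin 6 also had UTX, beside 2.46% of all genes with Menin. The 6 make up 12.8% of the whole family of 47, and genes with both make up 0.768% of all genes. Among them were Slc25a3, the phosphate carrier, with a Menin fold of 11.6 and a UTX fold of 8.74, Slc25a42 (9.22 and 8.35), Slc25a36 (9.45 and 7.06), Slc25a29 (8.50 and 7.86) and Slc25a17 (7.81 and 7.37). In the promoter entry under the Menin peak, Slc25a42 held 5 CCAAT, Slc25a29 held 2, Slc25a36 and Slc25a17 held 1 and Slc25a3 held 0. Of 8 E2F genes, which regulate the G1 to S transition, 7 had Menin (87.5%, against 31.2% of all genes). Both were found at 2 of the 8 (25%, against 0.768% of all genes), E2f8 (21.9 and 7.86) and E2f3 (11.5 and 6.18). The E2f3 promoter entry held 3 CCAAT. Vomeronasal and olfactory receptor genes, silent in most tissues, numbered 1465, of which 7 had Menin and 0 had both.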
